A study of Mus musculus with 2 samples.

Results

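The Wnt gene set described here comprised 56 of the 21911 protein-coding genes in the GENCODE M21 basic annotation of the mouse. Members were chosen by symbol alone, without any measured value. They were 18 of the Wnt ligand genes, 15 receptors and co-receptors (the 10 Fzd genes, Lrp5, Lrp6, Ror1, Ror2 and Ryk), 8 secreted inhibitors (Sfrp and Dkk genes), 7 R-spondins and Lgr receptors, 4 intracellular components (Axin1, Axin2, Apc and Ctnnb1) and 4 TCF/LEF transcription factors. Open chromatin around them was read from DNase-seq, which finds stretches of DNA that the enzyme DNase I can cut because no nucleosome covers them.

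Wnt proteins are secreted lipid-modified signals that bind Frizzled receptors together with the co-receptors Lrp5 or Lrp6. Without a signal, a complex built on Axin and Apc marks β-catenin (Ctnnb1) for breakdown; with a signal, β-catenin accumulates, enters the nucleus and acts with TCF/LEF factors at target genes. Ror and Ryk receptors serve branches that do not need β-catenin, and in the embryonic hindbrain Wnt signals act in dorsal patterning, precursor growth and axon guidance.

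The tissue was hindbrain of B6NCrl mouse embryos of mixed sex at embryonic day 14.5, described as healthy and carrying no stated transgene, mutation or treatment. There was 1 group of 2 biological replicates, taken as separate tissue samples that list the same donor record, with no other tissue, stage or condition to compare. Replicate 1 held 263679 peaks and replicate 2 held 148804 peaks, each 150 bp wide. Read counts are not part of the deposited lists, and sequencing depth is therefore unknown.

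A peak marks a position of locally strong cutting, and each carries a score, a whole number of up to 150 whose meaning and depth scaling are not stated. The median score was 47 in replicate 1 and 30 in replicate 2, so scores are given per library and compared within a library or by rank. Peaks of both libraries that overlap each other by 1 bp or more are called shared. Of the peaks, 42.4% in replicate 1 and 77.1% in replicate 2 were shared. Peaks centred no more than 1 kb from an annotated transcription start of a gene are its promoter peaks. Peaks beyond 1 kb of all annotated starts are distal, and a gene's distal count takes those within 50 kb of its outermost start. Where a position is given for a shared peak, it is that of replicate 1, in mm10 (GRCm38) coordinates.

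The tissue label was checked against marker genes. All 10 hindbrain markers (among them Gbx2, Hoxa2, Atoh1 and Ptf1a), 5 of 5 neuronal and 4 of 4 progenitor markers had a shared promoter peak. So did 4 of 4 meningeal, 3 of 4 choroid plexus, 2 of 4 endothelial and 2 of 4 forebrain markers, but 0 of 4 microglial, 1 of 4 erythroid and 1 of 4 liver markers. The microglial, erythroid and liver markers all had CpG-poor promoters, in the 5 lowest of the 10 classes defined below. Of all genes in those classes 32.8% were called, so the marker counts are a limited check of the tissue. The liver marker called was Ttr, which is also on the choroid plexus list, and its shared peak was centred within 1 kb of the start in replicate 1 only. Promoters of genes used by meninges and choroid plexus were thus open in the same samples, and the part of those cells in any Wnt gene's peaks was not tested.

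TCF/LEF factors bind a short core sequence, searched here as CTTTGAT or CTTTGAA on either strand. None of the other motifs searched contains it. At promoters, 8 shared peaks of 6 members held such a core. The 6 sequences that follow are those of Axin2, a feedback inhibitor that is itself a known target of β-catenin, of Dkk1, an inhibitor that binds Lrp6, of Tcf7 and of Wnt5b. They are shown because they place the pathway's own binding core in open promoter chromatin. They are plus-strand GRCm38 sequences from RefSeq, with the core in capitals, and each is named by the distance in bp of the peak's midpoint from the gene's nearest start. In that order they lie at chr11:108920736-108920885, chr11:108921156-108921305, chr19:30549916-30550065, chr19:30550376-30550525, chr11:52283336-52283485 and chr6:119448796-119448945.
Axin2 +461: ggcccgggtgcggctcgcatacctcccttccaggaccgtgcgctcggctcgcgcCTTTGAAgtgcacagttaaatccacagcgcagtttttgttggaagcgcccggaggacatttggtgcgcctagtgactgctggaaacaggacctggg
Axin2 +881: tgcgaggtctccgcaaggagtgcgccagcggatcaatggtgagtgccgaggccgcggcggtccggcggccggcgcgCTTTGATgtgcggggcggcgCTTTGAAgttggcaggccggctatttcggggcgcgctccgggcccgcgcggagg
Dkk1 −325: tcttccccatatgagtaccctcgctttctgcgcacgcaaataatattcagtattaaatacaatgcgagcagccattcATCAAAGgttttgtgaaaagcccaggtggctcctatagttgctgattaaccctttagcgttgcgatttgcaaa
Dkk1 −785: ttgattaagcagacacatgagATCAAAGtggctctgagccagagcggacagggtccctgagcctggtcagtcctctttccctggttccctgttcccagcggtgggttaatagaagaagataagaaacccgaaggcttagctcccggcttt
Tcf7 −396: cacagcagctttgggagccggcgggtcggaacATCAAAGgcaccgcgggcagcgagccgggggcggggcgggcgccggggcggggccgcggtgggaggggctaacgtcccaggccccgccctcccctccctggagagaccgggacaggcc
Wnt5b +516: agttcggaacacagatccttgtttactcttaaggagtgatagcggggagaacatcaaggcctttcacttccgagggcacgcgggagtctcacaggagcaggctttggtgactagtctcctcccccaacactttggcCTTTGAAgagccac

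Of the distal shared peaks around members, 17 held a TCF/LEF core. The 4 with the highest mean score rank follow, the rank being a peak's percentile in its own library averaged over both libraries. They lie upstream of Dkk3 and Lef1, inside an intron of Wnt10a, and downstream of the start of Axin2, and the name gives the distance in bp from that gene's outermost start. Their positions are chr7:112180316-112180465, chr3:131106016-131106165, chr1:74797556-74797705 and chr11:108961716-108961865. The core is again in capitals, and the Axin2 peak holds 2 of them.
Dkk3 −21333: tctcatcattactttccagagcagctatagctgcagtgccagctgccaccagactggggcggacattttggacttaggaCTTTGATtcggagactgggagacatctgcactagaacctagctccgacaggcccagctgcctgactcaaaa
Lef1 −4381: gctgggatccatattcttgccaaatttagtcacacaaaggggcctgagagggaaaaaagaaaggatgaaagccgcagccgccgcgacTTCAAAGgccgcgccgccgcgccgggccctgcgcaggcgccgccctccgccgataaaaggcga
Wnt10a +6114: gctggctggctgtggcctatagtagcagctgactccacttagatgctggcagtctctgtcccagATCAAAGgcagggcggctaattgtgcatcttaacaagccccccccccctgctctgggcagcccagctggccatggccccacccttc
Axin2 +41441: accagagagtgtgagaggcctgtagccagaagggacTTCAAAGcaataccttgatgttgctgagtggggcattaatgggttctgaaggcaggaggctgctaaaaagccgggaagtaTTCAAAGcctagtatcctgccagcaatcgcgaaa

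The next set shows the 3 strongest distal shared peaks of all members by mean score rank and, last, the strongest peak inside the coding exon of Fzd7. The first 3 hold the E-box CAGCTG, in capitals, and no TCF/LEF core. The peak next in rank, 25494 bp downstream of the Wnt10a start and not shown, holds neither. In the Fzd7 sequence the capitals mark a match to the consensus of CTCF, the factor that anchors chromatin loops. The positions are chr1:74808236-74808385, chr7:98815356-98815505, chr1:135154496-135154645 and chr1:59483896-59484045. The Wnt11 sequence is also the site of a transfer RNA gene in RefSeq, n-TPtgg8, whose annotated start lies 15 bp from the peak's midpoint. The Lgr6 peak lies inside an intron of the neighbouring gene Arl8a, 388 bp from a transcript start of Arl8a in the comprehensive GENCODE set.
Wnt10a +16794: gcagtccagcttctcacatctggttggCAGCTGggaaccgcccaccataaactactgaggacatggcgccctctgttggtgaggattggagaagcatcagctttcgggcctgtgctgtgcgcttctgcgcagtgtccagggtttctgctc
Wnt11 −19701: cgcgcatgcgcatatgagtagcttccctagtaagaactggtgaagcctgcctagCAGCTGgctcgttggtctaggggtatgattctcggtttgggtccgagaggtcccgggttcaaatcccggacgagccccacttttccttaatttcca
Lgr6 −49294: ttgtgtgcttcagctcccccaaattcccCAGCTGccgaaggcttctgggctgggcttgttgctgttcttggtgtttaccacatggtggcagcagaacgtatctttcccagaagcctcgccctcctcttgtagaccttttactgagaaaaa
Fzd7 +1546: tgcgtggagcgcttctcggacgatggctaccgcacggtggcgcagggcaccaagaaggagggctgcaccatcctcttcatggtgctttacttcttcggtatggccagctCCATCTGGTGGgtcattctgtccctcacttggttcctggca

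Most Wnt pathway genes had open promoters in both hindbrain samples. A shared promoter peak was called at 49 of the 56 members (87.5%), against 64.6% of all protein-coding genes, which are not matched for CpG content. By library, 52 members were called in replicate 1, where the figure for all genes was 69.9%, and 50 in replicate 2, where it was 65.7%. The promoters of all 15 receptors and co-receptors, all 4 intracellular components and all 4 TCF/LEF factors were open in both libraries. Of the remaining classes, 14 of 18 ligands, 7 of 8 secreted inhibitors and 5 of 7 genes of the R-spondin class were called. In bulk tissue, fewer cells with an open site and weaker cutting in each cell cannot be told apart, and with depth unknown a missing call does not show closed chromatin.

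Promoter CpG content differed between the members and all genes, and it moves with promoter peaks genome-wide. The median ratio of observed to expected CpG, taken over 500 bp on each side of the start, was 0.77 for members and 0.57 for all genes. With genes sorted into 10 equal classes of this ratio, 31 members fell in the 3 highest classes. Of these, 29 had a shared promoter peak, and 98.1% of all genes in those classes did. In the 5 lowest classes 8 of 11 members were called, against 32.8% of all genes there, but no member lay in the lowest 2 classes. The 11 were 1 of 1 called in class 3, where 21.6% of all genes were, 1 of 4 in class 4 (45.7%) and 6 of 6 in class 5 (80.1%). In the classes between, 9 of 10 members were called in class 6, where 92.1% of all genes were, and 3 of 4 in class 7 (95.7%). The part of CpG content in the members' overall share was not tested.

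The 4 members without any promoter peak were Wnt3a, a dorsal midline ligand of the neural tube, Wnt8b, a ligand known from the dorsal forebrain, Rspo1, one of the secreted R-spondins that raise Wnt responses, and the inhibitor Dkk4. Neither library had a peak within 1 kb of their starts. The promoters of Wnt3a and Rspo1 are CpG-rich, with ratios of 0.75 and 0.78, and those of Wnt8b and Dkk4 are not, with 0.33 and 0.31. Within 50 kb, Wnt3a, Wnt8b and Rspo1 had 13, 7 and 7 distal shared peaks, while Dkk4 had 0. Most of those of Wnt3a lay nearer to the start of Wnt9a, and most of those of Rspo1 nearer to 9930104L06Rik or Gnl2. The strongest one counted for Rspo1 scored 90 in each library. It lay 59 bp from a transcript start of 9930104L06Rik in the comprehensive GENCODE set.

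Promoter calls differed between the libraries at Wnt10a and Rspo4, secreted signals known from skin appendages and nails. The Wnt10a promoter had 1 peak, with a score of 50 and a midpoint 6 bp from the start, in replicate 1 and none in replicate 2. Rspo4 had peaks of score 37 and 30 in replicate 1 and none in replicate 2. Among all protein-coding genes, 4.89% were called in replicate 1 only, and 0.648% in replicate 2 only, as 0 members were. Wnt6 had promoter peaks in each library that did not meet: those of replicate 1 scored 40 and 55 and those of replicate 2 scored 27 and 28, and the closest pair ended at position 74772325 and began at 74772336 of chromosome 1.

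**Figure D1:**
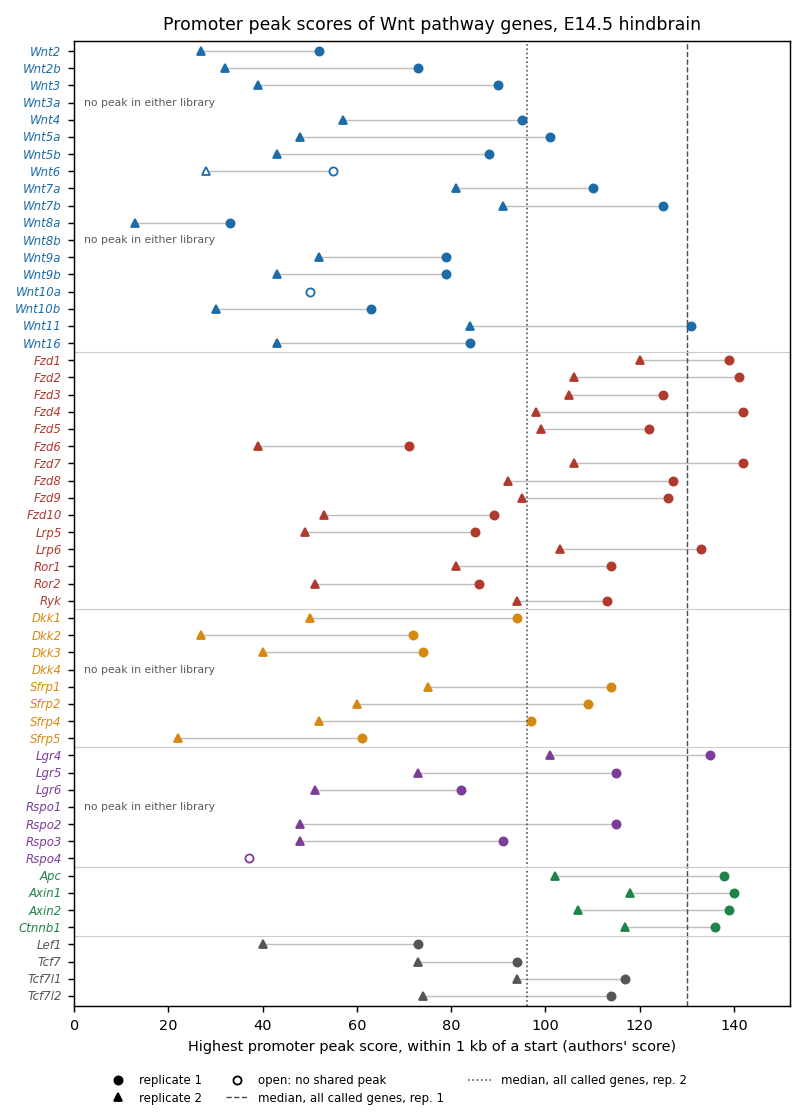
Highest promoter peak score of each of the 56 members, one row per gene coloured by class, in replicate 1 (circles) and replicate 2 (triangles); the horizontal axis is the authors' score, and open symbols mark genes whose peaks are not shared. The dashed and dotted lines are the medians over all 14151 called genes, 130 in replicate 1 and 96 in replicate 2, and most Fzd and intracellular genes sit near them while most ligands sit to their left.

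Scores at called promoters were lower for members than for all called genes. The median of the highest promoter score was 109 for members and 130 for all called genes in replicate 1, and 60 and 96 in replicate 2. By class, the median was 86 and 43 for ligands in replicates 1 and 2, 94 and 50 for secreted inhibitors, 125 and 95 for receptors, and 138 and 112 for intracellular components. Replicate 1 gave the higher score at all 50 members with a promoter peak in both libraries. The order of members was alike in both, with a Spearman correlation of 0.938 across the 50 genes, which are not replicates.

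Among the ligands, Wnt11, a signal of the β-catenin-independent branch, and Wnt7b, which with Wnt7a drives the growth of brain vessels, had the strongest promoters. Wnt11 scored 131 in replicate 1 and 84 in replicate 2. Wnt7b scored 125 and 91, and Wnt7a 110 and 81, in the same order. These 3 stood above every other ligand in both libraries. Wnt5a, the best known ligand of the β-catenin-independent branch, scored 101 in replicate 1 and 48 in replicate 2, and Wnt4, known for kidney and gonad development, scored 95 and 57. Wnt3, Wnt5b, Wnt16, Wnt9a, Wnt9b and Wnt2b fell between 73 and 90 in replicate 1 and between 32 and 52 in replicate 2.

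Wnt10b, Wnt2 and Wnt8a had the weakest called promoters among ligands. Wnt10b scored 63 in replicate 1 and 30 in replicate 2. At Wnt2 the highest peak of replicate 1, with a score of 52, was not shared, and the shared peak scored 34 in replicate 1 and 27 in replicate 2. Wnt8a, a ligand of the early embryo, had the lowest score of all called members, 33 in replicate 1 and 13 in replicate 2.

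All receptor promoters were open in both libraries, most with high scores. The Frizzled genes, which encode the receptors that bind Wnt proteins directly, had median promoter scores of 126 in replicate 1 and 98.5 in replicate 2. Fzd1 scored 139 and 120, Fzd7 142 and 106, Fzd2 141 and 106, and Fzd4, a receptor also of the vessel-guiding ligand Norrin, 142 and 98. Fzd3, a receptor that guides growing axons, scored 125 and 105, and Fzd5, Fzd8 and Fzd9 between 122 and 127 in replicate 1 and between 92 and 99 in replicate 2. Fzd10 and Fzd6 stood apart below, at 89 and 53 for Fzd10 and at 71 and 39 for Fzd6.

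The co-receptors Lrp5 and Lrp6 had unlike promoters. Lrp6 scored 133 in replicate 1 and 103 in replicate 2, while Lrp5, known for setting bone density, scored 85 and 49. Ror1 scored 114 and 81 and Ror2, its relative and a receptor for Wnt5a, 86 and 51. Ryk, an axon guidance receptor with an inactive kinase domain, scored 113 and 94.

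Among secreted inhibitors, which bind Wnt proteins (Sfrp) or act on Lrp6 (most Dkk proteins), the highest scores were at Sfrp1 with 114 in replicate 1 and 75 in replicate 2 and at Sfrp2 with 109 and 60. Sfrp4 scored 97 and 52, and Sfrp5 61 and 22. Dkk1 scored 94 and 50, and Dkk3, a divergent member of the family, 74 and 40. Dkk2 reached 72 in replicate 1 and 27 in replicate 2, and its shared peak scored 41 and 27.

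R-spondins keep Frizzled receptors at the cell surface by acting through Lgr receptors. Lgr4 had the strongest promoter of this class, with 135 in replicate 1 and 101 in replicate 2. Lgr5, a stem cell marker of the intestine, scored 115 and 73, and Lgr6 82 and 51. Rspo2 and Rspo3 scored 115 and 91 in replicate 1 but 48 each in replicate 2.

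The intracellular components were high and close together in both libraries. Axin1, the scaffold of the destruction complex, scored 140 in replicate 1 and 118 in replicate 2. Axin2 scored 139 and 107, Ctnnb1 136 and 117, and the tumour suppressor Apc 138 and 102. The TCF/LEF factors were lower: Tcf7l1, which mostly represses, scored 117 and 94, Tcf7l2 114 and 74, Tcf7 94 and 73, and Lef1 73 and 40.

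Several members have annotated starts far apart, and the stronger peak was not always at the outermost one. At Wnt11 the start 3714 bp inside the gene had the peak of 131 and 84, and the outermost start one of 58 and 23. At Wnt5b the start 94961 bp inside scored 88 in replicate 1 and 43 in replicate 2, the outermost start 62 and 28, and a start at 77136 bp had no peak. Tcf7l2 had similar scores at its outermost start (114 and 74) and at a start 153690 bp inside the gene (105 and 74), as did Apc at starts 26714 bp apart (138 and 102, and 137 and 85). Lgr6 had no peak in either library at its start 87497 bp inside the gene.

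Distal open chromatin was denser around members than around genes in general, with large differences between members. The median member had 6 distal shared peaks within 50 kb (quartiles 3.75 and 8, range 0 to 14), and the median protein-coding gene had 3. With each peak counted only for the protein-coding gene with the nearest start, the medians were 4 for members and 1 for all genes. With the libraries taken separately, the medians were 12 for members and 8 for all genes in replicate 1, and 7 and 4 in replicate 2. There were 16 members with 8 or more (28.6%), against 14.6% of all genes, and 1 member with none (1.79%), against 17.7%. Ligands had the highest class median, 7.5, followed by TCF/LEF factors with 6.5 and the R-spondin class with 5. Receptors and secreted inhibitors had 4 each and intracellular components 3.5. These class medians take every peak within 50 kb. The ligand counts held 146 pairs of gene and peak but 117 distinct peaks, and most peaks of Wnt10b lay nearer to Wnt1 or Ddn. With each peak given only to the nearest start, ligands did not stand above TCF/LEF factors.

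**Figure D2:**
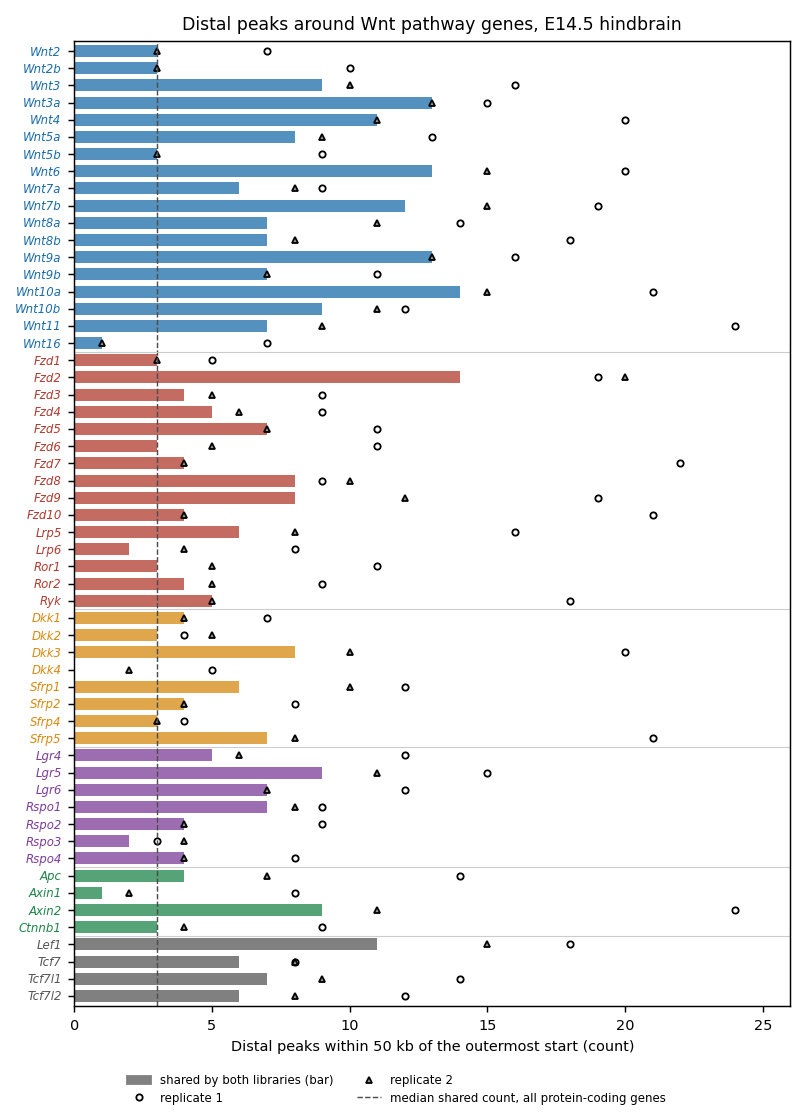
Distal peaks within 50 kb of the outermost start of each of the 56 members, one row per gene coloured by class. Bars count peaks shared by both libraries, open circles the peaks of replicate 1 and grey triangles those of replicate 2. Fzd2 and Wnt10a have the longest bars, 14 each, against a median of 3 over all protein-coding genes (dashed line).

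Fzd2 and Wnt10a had 14 distal shared peaks each. Most of those of Fzd2, the strongest included, lay nearer to the start of another protein-coding gene (Gm11627, Meioc or Gpatch8). The single libraries gave 19 (replicate 1) and 20 (replicate 2) for Fzd2, and 21 and 15 for Wnt10a. Wnt3a and Wnt9a had 13 each, out of 15 and 16 in replicate 1 and 13 each in replicate 2. Wnt6 had 13, Wnt7b 12, Wnt4 11 and Lef1 11. For these 4 genes the counts in replicate 1 were 20, 19, 20 and 18, and in replicate 2 they were 15, 15, 11 and 15.

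Some of these counts are the same peaks seen from neighbouring genes. The starts of Wnt6 and Wnt10a lie 19624 bp apart on chromosome 1, and all 13 distal shared peaks of Wnt6 were among the 14 of Wnt10a. The starts of Wnt3a and Wnt9a lie 16176 bp apart on chromosome 11 and had all 13 in common. Wnt9b and Wnt3, 24329 bp apart on the same chromosome, had 3 in common. Counted once each, 317 distal shared peaks lay around the 56 members, and for 253 of them (79.8%) the nearest protein-coding start belonged to a member.

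At the other end, Dkk4 had 0 distal shared peaks, with 5 peaks in replicate 1 and 2 in replicate 2. Axin1 had 1, with 8 in replicate 1 and 2 in replicate 2. Wnt16, known from bone and joint, had 1, with 7 in replicate 1 and 1 in replicate 2. Rspo3 and Lrp6 had 2 each, with 3 and 8 in replicate 1 and 4 each in replicate 2. A further 9 members had 3 (Wnt2, Wnt2b, Wnt5b, Fzd1, Fzd6, Ror1, Dkk2, Sfrp4 and Ctnnb1), with 4 to 11 in replicate 1 and 3 to 5 in replicate 2. A low count did not mean weak peaks: the single distal shared peak of Wnt16, 37583 bp downstream of its start inside the gene Fam3c, scored 95 in replicate 1 and 71 in replicate 2, and the stronger one of Rspo3, inside its own intron, scored 118 and 81.

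**Figure D3:**
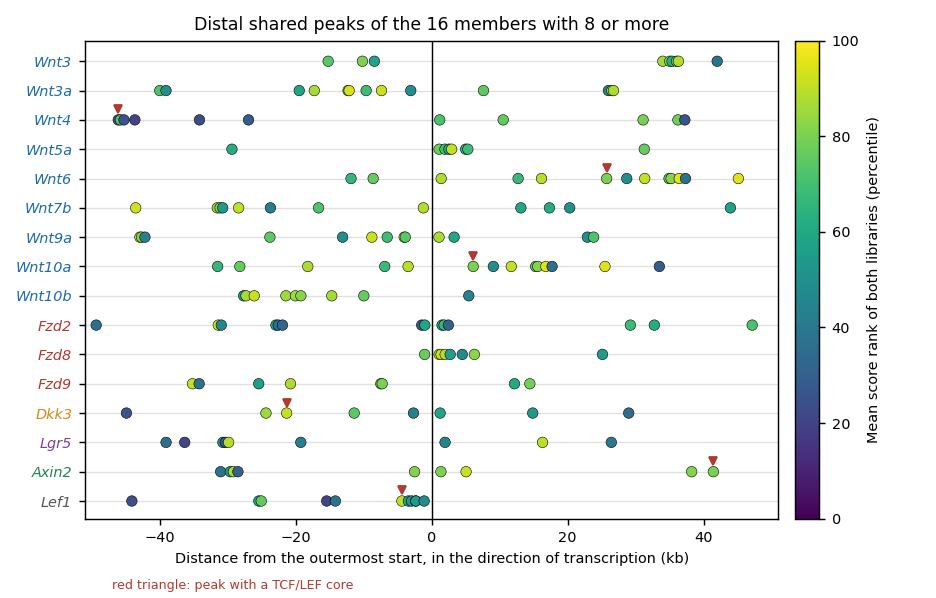
Positions of the distal shared peaks of the 16 members with 8 or more, as distance in kb from the outermost start in the direction of transcription (negative is upstream). Each point is a peak coloured by its score percentile averaged over both libraries, and red triangles mark peaks with a TCF/LEF core, which appear here at Wnt4, Wnt6, Wnt10a, Dkk3, Axin2 and Lef1.

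The distal peaks of individual members were arranged in different ways. The Fzd2 peaks were mostly intergenic on both sides, the strongest at −31386 bp, chr11:102572936-102573085 with scores of 108 in replicate 1 and 88 in replicate 2 and a CTCF consensus. At Wnt7b the 5 strongest lay upstream, between −43537 and −1217 bp, and the top one at chr15:85625936-85626085 scored 118 and 75. At Lef1 all 11 lay upstream, several of them within 1 kb of a RefSeq start of the non-coding RNA gene Gm36603 or of Lef1 itself. At Wnt5a 6 of the 8 lay between 1100 and 5320 bp downstream of the start, and the strongest of them, 2940 bp downstream in an intron, scored 112 and 68. Of these 6, 4 lay within 1 kb of further Wnt5a starts in the comprehensive GENCODE set or RefSeq.

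The shared peaks of the Wnt6 and Wnt10a pair included the one with the highest mean score rank around any member, 16794 bp downstream of the Wnt10a start, which scored 115 in replicate 1 and 105 in replicate 2. Its mean rank of 95.7 was the same, to this precision, as that of the Wnt11 peak at −19701 bp, and in replicate 1 alone other peaks scored higher. Another, 25494 bp downstream and 193 bp from the RefSeq transfer RNA gene n-TGgcc3, scored 125 and 91. Upstream of Wnt9a and Wnt3a, a peak at chr11:59302816-59302965 scored 118 and 82. By mean rank the strongest in other classes were 128 and 84 at −1891 bp from Sfrp2, 124 and 96 at the Arl8a intron counted for Lgr6, 106 and 77 in an Axin2 intron, and 105 and 75 upstream of Lef1 at the site shown with its TCF/LEF core.

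Some of the distal peaks lay near starts that the basic annotation does not hold. Of the 317, 42 (13.2%, 95% Wilson interval 9.95 to 17.4) lay within 1 kb of a start in the comprehensive GENCODE set or in RefSeq, against 9.18% of all 81027 distal shared peaks. Among them were the Wnt11 peak at the transfer RNA gene, with 123 and 98, and a peak 2 bp from a RefSeq start of Axin2, with 95 and 45. This interval, like those that follow, covers counting error over peaks only, not the spread between embryos. Here and in the shares of distal peaks that follow, the comparison set takes distal peaks at any distance from a gene. It is thus not matched to the members' peaks for closeness to a gene, and the part of closeness in any difference was not tested.

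Distal peaks around members lay in exons more often than distal peaks taken at any distance from a gene. Exons held 41 of the 317 (12.9%, interval 9.68 to 17.1), against 5.16% of all distal shared peaks, while introns held 40.1% against 50.6% and intergenic DNA 47.0% against 44.2%. Several Frizzled genes carry their whole protein in a single exon, and 13 of the 41 lay in exons of 5 of them, Fzd1, Fzd2, Fzd5, Fzd7 and Fzd8. With these 13 left out the exonic share was 9.21%. The Fzd7 peak whose sequence is shown, 1546 bp downstream of the start, scored 113 in replicate 1 and 74 in replicate 2. Of the 5 exonic peaks of Fzd8, the top 3 scored 108, 115 and 107 in replicate 1 and 65, 73 and 63 in replicate 2, and the second and the third held a CTCF consensus. The first and the second lay 414 and 694 bp from a RefSeq start of Fzd8 that the basic annotation does not hold.

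Fewer of the distal peaks near members were seen in 1 library alone than of distal peaks taken at any distance from a gene. In replicate 1, 355 of 672 distal peaks near members were private, meaning without overlap in the other library (52.8%, interval 49.0 to 56.6), against 62.8% of all its distal peaks. In replicate 2, 67 of 392 were private (17.1%, interval 13.7 to 21.1), against 23.5%. Replicate 1 had more distal peaks at 51 members, replicate 2 at 4 (Fzd2, Fzd8, Dkk2 and Rspo3, by 1 peak each), and Tcf7 had 8 in both.

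Fzd7 and Fzd10 had the largest differences between the libraries among the 56 members. At Fzd7, replicate 1 held 22 and replicate 2 held 4 distal peaks, and at Fzd10 the counts were 21 and 4. All 4 of replicate 2 were shared at each gene, so 18 and 17 peaks were private to replicate 1. Of the 2118 protein-coding genes with 4 distal peaks in replicate 2, the median had 7 in replicate 1 (quartiles 5 and 9). Of these genes, 0.189% had at least as many in replicate 1 as Fzd7 and 0.283% at least as many as Fzd10, themselves included. Both genes were picked for this gap, so these shares describe it and do not test it. The median score of all distal peaks of replicate 1, shared and private, was 46.5 at Fzd7 and 48 at Fzd10. Over all peaks of replicate 1, promoter peaks included, it was 47. The scores of the private peaks alone were not summarised.

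**Figure D4:**
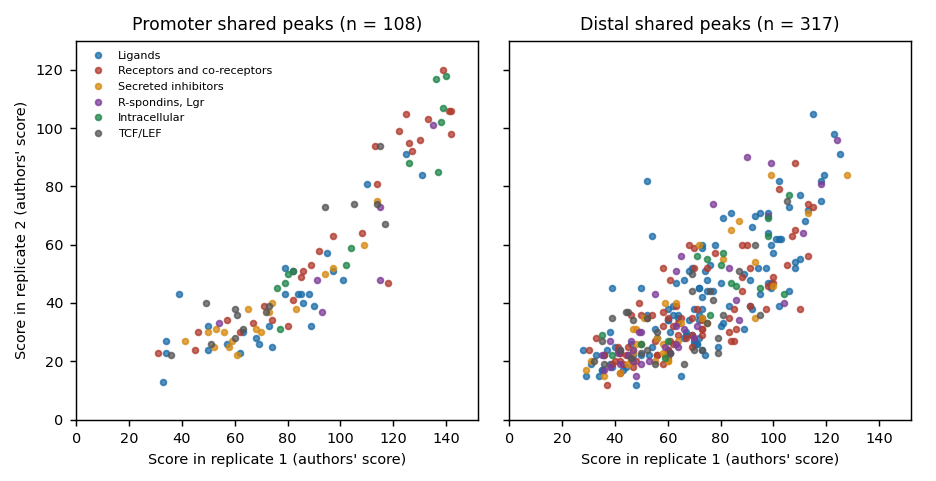
Score of each shared peak of the members in replicate 1 (horizontal axis) and replicate 2 (vertical axis), in the authors' score units, for the 108 promoter peaks (left) and the 317 distal peaks (right), coloured by class. Points rise together in both panels, with a wider spread for distal peaks.

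Scores of shared peaks followed each other across libraries. The Spearman correlation across peaks was 0.916 for the 108 promoter peaks of members and 0.785 for their 317 distal peaks. Across all promoter shared peaks it was 0.948 (n = 30695) and across all distal shared peaks 0.795 (n = 81027). Peaks of one library share its depth, and neighbouring peaks are not independent.

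The TCF/LEF core was about as common in distal peaks near members as elsewhere. It was present in 17 of 317 (5.36%, interval 3.37 to 8.42), against 5.39% of all distal shared peaks. At promoters it was present in 8 of 108 shared peaks of members (7.41%, interval 3.80 to 13.9), against 2.78% of all 30695 promoter shared peaks. These 8 were 2 at Axin2, 2 at Dkk1 and 1 each at Dkk2, Dkk3, Tcf7 and Wnt5b, so they came from 6 genes. The median GC content was 64.7% in the members' promoter peaks and 62.0% in all of them. In RefSeq promoter windows of 300 bp at the start (GRCm38.p6), matched for 37 of the 56 members, the core was in 3 of 46 windows (6.52%, interval 2.24 to 17.5), against 7.47% of windows of all protein-coding genes. The 3 were at Dkk1, Wnt11 and Wnt5b. None of these windows overlaps a core-bearing promoter peak, so the cores in them are other ones. The share in windows and the share in peaks thus cover different DNA, and the first does not test the second.

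Scores at the core-bearing promoter peaks ranged widely. The Axin2 peaks scored 126 and 104 in replicate 1 and 88 and 59 in replicate 2, and the second held both forms of the core. The Dkk1 peaks scored 56 and 50 in replicate 1 and 30 each in replicate 2, and the Tcf7 peak scored 94 and 73. The Wnt5b peak lay 516 bp inside its innermost start and scored 50 and 24. Among distal core-bearing peaks the Dkk3 and Lef1 sites had the highest mean ranks, with 113 and 71 at Dkk3 and 105 and 75 at Lef1, and the lowest mean rank was at −46099 bp from Wnt4, with 33 and 22.

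Other motifs were near their general levels in the distal peaks of members. The CTCF consensus was in 11% (interval 8.05 to 15), against 9.32% of all distal shared peaks. The E-box CAGCTG, a site of neural bHLH factors, was in 18.6% (interval 14.7 to 23.3), against 16.6%, and the paired half-sites of NFI in 4.73% against 3.34%. The homeodomain site TAATTA was in 4.73% against 6.85%, the POU octamer in 0.946% against 1.78% and the SOX site ACAATGG in 1.89% against 2.48%. The RFX site was in 0.315% against 0.990%. For each of these 7 motifs the interval of the members' share included the level in all distal shared peaks, so no difference was detectable at this number of peaks.

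A further 45 genes of the pathway that were not members were read in the same way, from ligand processing through planar polarity to nuclear cofactors. A shared promoter peak was present at 43 of them (95.6%), against 64.6% of all protein-coding genes. The exceptions were Sost, a bone inhibitor without a promoter peak in either library, and Sostdc1, another inhibitor of the same family, which was called in replicate 1 only. Of the 45 genes, 25 lay in the 3 highest CpG classes, and all 25 were called, against 98.1% of all genes there. In the 5 lowest classes 4 of 6 were called, against 32.8%. The part of CpG content in the share of the 45 was not tested. The median distal count of the 45 genes was 6, the same as for the members. Tle3, which encodes a corepressor used by TCF/LEF factors, and Draxin, an axon guidance protein that can act on Lrp6, had the most distal shared peaks, 15 each, followed by Celsr2, a planar polarity cadherin, and Gsk3a, a kinase of the destruction complex, with 13 each. Wls, which carries Wnt proteins out of the cell, had 7. Reck and Adgra2, the co-receptors through which Wnt7a and Wnt7b act on brain vessels, both had open promoters and had 3 and 5 distal shared peaks.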

How the data were processed

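DNase-seq of 2 hindbrain samples of 1 group was analysed. For each, the authors deposited peaks with a score and hotspots, wider enriched regions, with a −log10 q-value from 1.30 to a cap of 100. Both were derived for each replicate separately from mm10 alignments, per the text deposited with the samples. Neither the aligner, the peak caller nor what the score counts is given in the sources used here. Of the deposited peaks, 253 in replicate 1 and 303 in replicate 2 lay off the 21 assembled chromosomes and were dropped.

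Python 3.11.15 with NumPy 2.4.6, pandas 2.3.3, SciPy 1.17.1, pysam 0.24.0 and matplotlib 3.10.9 was used. Gene models were GENCODE M21 basic, and sequence was RefSeq GRCm38.p6. Members, lists and motifs were chosen with earlier results of these data known. With 1 group there was no condition to test, so counts and medians stand beside those of all protein-coding genes, and shares of peaks carry 95% Wilson intervals, which cover counting error only. Overlap, promoter, distal and motif counting were tested on simulated data.

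Every member could be named. Values in both libraries were required for members without a shared promoter peak or with differing calls, for the 8 highest and 8 lowest by distal shared count, and for the strongest promoter and distal peak of each class. The promoter and Fzd7 sequences, the library gap at Fzd7 and Fzd10 and the exon counts were chosen after their values were seen. Alternatives were the windows, the overlap, a score minimum, hotspots in place of peaks, each library alone, the start used and the motif.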

Additional observations from a re-analysis of the deposited data

How the results depend on the processing

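The count of members with a shared promoter peak stayed between 45 and 51 when the promoter window was 500 or 2500 bp, the overlap at least 50% of each peak, peaks below their library's median score were dropped, or hotspots replaced peaks, and it was 50 to 52 with 1 library alone. The 500 bp window lost Dkk2, Wnt16, Wnt2 and Wnt8a, and the score minimum lost Dkk2, Sfrp5, Wnt2 and Wnt8a. The 2500 bp window gained Rspo1 and Wnt6, hotspots gained Wnt6, and the 50% overlap lost Fzd6. For the other pathway genes the count was 42 to 44. The share over all protein-coding genes was not computed at these settings, except with 1 library alone (69.9% in replicate 1 and 65.7% in replicate 2). The median distal count followed the window by construction, with 2.50 within 20 kb and 10.5 within 100 kb, against 1 and 7 for all genes. It was 3 with the score minimum, against 2, and 4 with each peak given to the nearest start only, against 1. The single libraries gave 7 to 12, against 4 to 8. Distinct distal peaks numbered 150 within 20 kb, 583 within 100 kb, 187 with the score minimum and 392 to 672 in a single library. With the 50% overlap 58.5% of replicate 1 and 27.8% of replicate 2 distal peaks near members were private, and with the score minimum 5.10% of replicate 2 were. The private shares over all distal peaks were not computed at these settings, so members and all peaks can be compared only at the reported setting. CTTTGAT alone was in 2.84% of distal shared peaks near members, against 2.18% of all. Gene-record starts, and starts of the comprehensive and RefSeq sets, were alternatives chosen after seeing the data, and with them the median distal count was 6 and 5, and the TCF/LEF share with the second was 5.82%. No paired analysis was possible because there is 1 group. Depth is unknown, so absence of a peak in replicate 2 cannot be told apart from shallower sequencing.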
